A study of Mus musculus with 6 samples.

Results

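The 7 genes described here are the BMP ligand genes Bmp2, Bmp3, Bmp4, Bmp5 and Bmp7 and the genes of the secreted BMP antagonists noggin (Nog) and gremlin 1 (Grem1). They are 7 of the 24568 gene rows of a single-cell RNA count matrix from the embryonic mouse small intestine, and each was found by its symbol. They were chosen by name for their place in BMP signalling, with earlier results of these data known. The study used MULTI-seq, in which cells of many samples are marked with lipid-bound DNA tags and pooled before capture. The intestines came from C57/BL6 mice that carry the Pdgfra-H2BGFP reporter, a nuclear GFP expressed from the Pdgfra locus, and all 4 groups share it. Intestines of replicate embryos were pooled, with 4 at E13.5, 3 at E14.5 and 2 at each of E15.5, E16.5 and E18.5, after cutting into pieces of 2.5 mm. The groups are all live cells of E15.5 and E16.5 (2 wells), enriched cells of E15.5 and E16.5 (1 well), all live cells of E13.5, E14.5 and E18.5 (2 wells) and enriched cells of E13.5, E14.5 and E18.5 (1 well). Live cells lacked DAPI and Ter119 staining, and the enriched wells added sorted cells with CD31, CD45, Epcam or a high reporter signal.

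Bone morphogenetic proteins are secreted dimers of the TGF-beta family. They bind pairs of type I and type II receptors, which phosphorylate the receptor SMAD proteins; these enter the nucleus with Smad4 and switch on targets such as the Id genes. Noggin and gremlin 1 bind the ligands outside the cell and keep them from the receptors. In the developing gut, mesenchymal cells with high PDGFRA gather under the epithelium where villi form and are known as a source of BMP ligands, whereas deeper mesenchyme and smooth muscle are known sources of antagonists.

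The genes lie apart in the genome (GRCm38, GENCODE M21). Grem1 (chr2:113746164-113758646, minus strand), Bmp2 (chr2:133552159-133562885, plus strand) and Bmp7 (chr2:172868012-172940321, minus strand) share a chromosome without being neighbours. Bmp3 is at chr5:98854415-98884396 (plus strand), Bmp5 at chr9:75775364-75900310 (plus strand), Nog at chr11:89300638-89302332 (minus strand) and Bmp4 at chr14:46383520-46390669 (minus strand). All 7 are annotated as protein coding. Bmp4 overlaps the opposite-strand genes Gm15217 and Gm15222, and Bmp5 overlaps the antisense gene Gm26903. On its own strand Bmp5 also overlaps Gm47723, which has no row in the matrix. Whether the counting used strand is not given in the sources used here, so reads of these overlaps cannot be told apart.

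Promoter sequences from RefSeq (GRCm38.p6) were available for only 3 of the 7 genes, and all 3 are shown. In the counts, Bmp4 was found in nearly all Pdgfra-positive cells, and Bmp5 UMIs were higher in cells with Nog. Grem1 was the member that was lower where the ligands were higher. These counts did not guide the choice of promoters. Each sequence is the 250 bases before the start of the gene, read 5′ to 3′ on the gene's strand, with matches to the searched motifs in capitals.
Bmp4 (chr14:46390670-46390919, minus strand): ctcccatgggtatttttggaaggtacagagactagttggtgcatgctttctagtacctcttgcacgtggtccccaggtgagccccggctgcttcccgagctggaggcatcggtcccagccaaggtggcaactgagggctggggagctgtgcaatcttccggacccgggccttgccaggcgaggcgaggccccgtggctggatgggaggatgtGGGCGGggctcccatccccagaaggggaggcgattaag
Bmp5 (chr9:75775115-75775364, plus strand): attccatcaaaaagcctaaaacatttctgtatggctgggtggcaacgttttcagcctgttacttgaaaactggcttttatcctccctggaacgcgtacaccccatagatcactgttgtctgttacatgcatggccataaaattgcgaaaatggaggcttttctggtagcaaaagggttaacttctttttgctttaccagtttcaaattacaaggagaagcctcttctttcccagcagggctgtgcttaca
Grem1 (chr2:113758649-113758898, minus strand): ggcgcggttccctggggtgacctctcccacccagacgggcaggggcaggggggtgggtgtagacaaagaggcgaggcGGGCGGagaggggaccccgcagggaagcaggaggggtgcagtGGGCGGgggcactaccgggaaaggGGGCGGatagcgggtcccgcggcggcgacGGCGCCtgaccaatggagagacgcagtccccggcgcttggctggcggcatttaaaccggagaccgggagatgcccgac
The motifs were searched on both strands and did not overlap in these sequences. GGGCGG, the GC box, was found at 1 place for Bmp4 and at 3 places for Grem1, and 32.742% of 32851 promoters of the same length hold it. GGCGCC, a motif of BMP-activated SMAD proteins, was found once in the Grem1 promoter, 78 to 73 bases before the start, and in 9.586% of all promoters. GACCACCCA, a GLI motif, and GTAAACA, a forkhead motif, were in none of the 3 windows and in 0.225% and 3.166% of all promoters. The GC content was 63.2% for Bmp4, 42.8% for Bmp5 and 72.0% for Grem1, against 53.22% over all promoters. A match is a description of letters and not of a binding site.

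The matrix holds 13127 cells and 100735249 UMIs, the molecular tags that count each captured RNA molecule once. Cell barcodes end in 1 of 6 suffixes, and no label ties a suffix to a sample, so the matrix counts as 1 sample without replicates. No test was possible, and all intervals are exact 95% intervals for counting error only. The suffixes were used as technical sets, called A1, A2 and A3 for those with the ending _1 and B1, B2 and B3 for the ending _2. After leaving out cells with fewer than 1000 detected genes or over 5% mitochondrial UMIs, 12688 cells remained, with a median per set of 3553 to 13588 UMIs. The sets of ending A were deeper than those of ending B. Of the barcodes, 19 were shared between sets of different endings and 3 within an ending. Collagen genes and other mesenchyme markers summed to 3886 to 6427 CPM (UMIs of a gene per 1000000 UMIs of the set), while the 5 blood, 5 endothelium and 7 epithelium markers summed to at most 79.9, 49.9 and 372 CPM. Red cell markers, the globin genes, summed to 25.4 to 36.3 CPM in ending A and to 1844, 1785 and 3697 CPM in B1, B2 and B3, and 5 enterocyte markers summed to 2325 CPM in A3 and to 32.0 to 491 CPM in the other sets. Sets A3 and B3 stood apart from the others of their ending in Pdgfra, with 943 and 409 CPM against 106 to 173 CPM, and 92.0% and 42.2% of their cells had 2 or more Pdgfra UMIs, against 51.3%, 44.9%, 10.4% and 10.9% in A1, A2, B1 and B2.

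All 5 ligand genes were higher in A3 and B3 than in the other sets of the same ending, Nog was higher as well, and Grem1 was lower. Bmp2, which signals through the receptor SMADs, was at 15.3, 13.7 and 271.6 CPM in A1, A2 and A3 and at 52.2, 59.8 and 278.7 CPM in B1, B2 and B3. A3 and B3 were far above the rest, and the intervals of those sets overlapped each other. The log2 ratio of the -3 set over the other sets was 4.22 (4.11 to 4.34) in ending A, an 18.7-fold difference, and 2.31 (2.21 to 2.41) in ending B. A Bmp2 UMI was found in 63.7% of A3 cells and 53.2% of B3 cells, against 10.2% in each of A1 and A2 and 15.7% and 16.5% in B1 and B2. With every cell thinned to 2000 UMIs, these shares were 37.2% and 37.4% in A3 and B3 and 3.40%, 3.07%, 10.0% and 10.2% in A1, A2, B1 and B2.

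Bmp4, the ligand known from the earliest gut mesenchyme, was found in 85.6% to 97.0% of the cells of every set. Its level was 390, 369 and 910 CPM in the sets of ending A and 645, 654 and 1222 CPM in those of ending B. The order of the sets was A2, A1, B1, B2, A3 and B3, in which B1 and B2 were the only neighbours whose intervals overlapped. The log2 ratios of the -3 set were 1.26 in ending A and 0.91 in ending B, the lowest among the 5 ligands in both endings.

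Bmp3, an atypical family member known for opposing other BMPs, was at 75.1, 64.1 and 394.7 CPM in the sets of ending A and at 157.6, 156.6 and 478.3 CPM in ending B. Its log2 ratios were 2.50 and 1.61. Bmp5 and Bmp7 belong to the same subgroup of ligands. Bmp5 was at 40.9, 39.6 and 300.7 CPM in ending A and at 28.5, 28.2 and 106.5 CPM in ending B, with log2 ratios of 2.90 and 1.91. Bmp7 was at 18.1, 16.8 and 101.9 CPM and at 28.6, 27.9 and 111.1 CPM, with log2 ratios of 2.54 and 1.98. For both genes the sets with the suffix numbers -1 and -2 overlapped each other within an ending, and the -3 sets lay above them. A3 and B3 were alike for Bmp7 and not for Bmp5, whose level in A3 was above that in B3 by more than counting error.

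The antagonists were sparse. Nog was at 4.47, 3.92 and 20.2 CPM in ending A, where a UMI was found in 4.98%, 5.08% and 10.4% of cells, and at 2.56, 3.29 and 8.58 CPM in ending B. Its log2 ratio of the -3 set was 2.27 (1.99 to 2.54) in ending A and 1.54 (1.03 to 2.06) in ending B. Grem1 was at 12.0, 12.8 and 2.13 CPM in ending A and at 6.30, 8.10 and 0.121 CPM in ending B, the last of which is a single UMI in 2202 cells. It was the only member that was lower in the -3 sets, with log2 ratios of -2.54 (-3.26 to -1.90) and -5.90 (-11.2 to -3.41). The summed level of 5 smooth muscle markers moved the same way, from 1517 and 1572 CPM in A1 and A2 to 550 in A3 and from 1106 and 1091 CPM in B1 and B2 to 227 in B3; none of the markers was at 0, and their part in the Grem1 difference was not tested. Neuron markers also fell short in the -3 sets, at 2.56 CPM in A3 and 0.484 in B3, where 2 of the 4 were at 0, against 19.5 to 38.0 CPM in the other sets. Markers of several other cell types were higher there, as the ligands were. Epithelium markers were at 372 CPM in A3 and 115 in B3 against 41.8 to 53.9 CPM in the other sets. Enterocyte markers were at 2325 CPM in A3 against 491 and 472, and at 55.6 in B3 against 35.0 and 32.0. Blood markers were at 79.9 and 65.6 CPM in A3 and B3 against 8.04 to 30.8, endothelium markers at 49.9 and 46.7 against 6.21 to 16.8, and red cell markers at 3697 in B3 against 1844 and 1785. The part of these cell types in the differences of the members was not tested.

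At 2-fold or more, 6 of the 7 members were higher in A3, where 9.62% of 7421 genes were, and 5 of 7 were higher in B3, where 8.62% of 6416 genes were. Grem1 was lower by 2-fold or more in both endings; 5.65% of genes were lower in A3, 5.41% in B3 and 3.26% of 6129 genes in both. Those backgrounds hold genes of 20 CPM or more on 1 side, a level that Grem1 did not reach, nor Nog in ending B. Between A1 and A2 no member differed by 2-fold, and 0.193% of genes were higher and 0.0148% lower by that much in A1. Between B1 and B2 no member differed by 2-fold either, nor did any gene at that minimum (0% in each direction). The median log2 ratio was 2.50 over the members and -0.05 over all genes in ending A, and 1.61 and 0.12 in ending B.

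**Figure D1:**
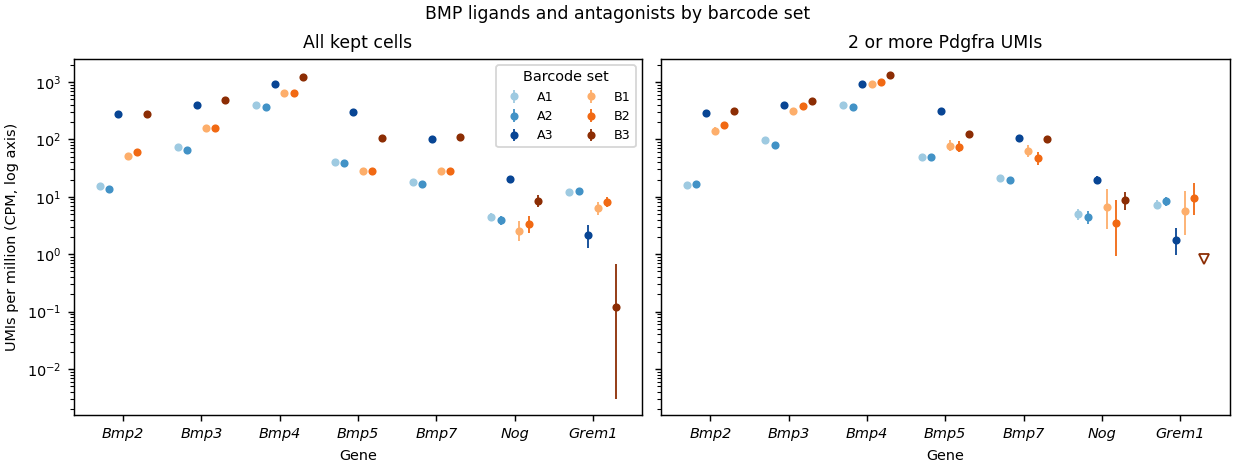
Level of the 7 genes in each barcode set, in CPM on a log axis, over all kept cells (left) and over cells with 2 or more Pdgfra UMIs (right). Points are set values with exact Poisson 95% intervals, and the open triangle marks the level of 3 counts for Grem1 in B3, where no UMI was found; over all cells the dark points of A3 and B3 lie highest for the ligands and lowest for Grem1, and on the right B2 lies above A3 for Bmp4.

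The members were next compared with other genes of the pathway. Of 50 listed genes, 48 had a row, and 26 reached 20 CPM in at least 1 set. In both endings 12 of the 26 were 2-fold or more higher in the -3 set, 6 were higher by less, 1 was 2-fold or more lower, 3 were lower by less and 4 differed in direction between endings, and 6.23% of all genes were 2-fold or more higher in both endings. The 12 were the ligand Bmp6 (log2 ratios 2.61 in A and 2.01 in B), the extracellular ligand-binding proteins Fst (1.52 and 1.05), Twsg1 (1.91 and 1.50) and Nbl1 (2.25 and 1.44), the receptors Bmpr2 (1.41 and 1.19) and Acvrl1 (1.83 and 1.08), the coreceptor Eng (2.29 and 1.22), the receptor SMAD gene Smad9 (1.93 and 1.59), the inhibitory Smad6 (2.07 and 1.89), and the targets Id1 (1.87 and 1.58), Id2 (2.66 and 2.16) and Id3 (1.23 and 1.06). Id4, also a target, was lower, with log2 ratios of -1.66 and -1.67. Ligand genes, antagonist genes, receptors and targets were thus all among those that were higher. The median over the 26 was 0.74 in ending A and 0.87 in ending B, below the medians of the members.

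To see how far the set differences follow the share of Pdgfra-positive cells, the members were read within the 4731 cells that had 2 or more Pdgfra UMIs. Their median depth per set was 13432.5, 15264 and 7075.5 UMIs in ending A and 3978, 3762 and 3632 UMIs in ending B. The minimum of 2 UMIs does not make the cells alike in Pdgfra, which was at 1016 CPM in A3 against 274 and 222 in A1 and A2, a log2 ratio of 2.02, and at 761 CPM in B3 against 594 and 625, a log2 ratio of 0.32. Within these cells Bmp2 was at 15.9, 16.6 and 285 CPM in A1, A2 and A3, a log2 ratio of 4.14. In ending B it was at 141, 175 and 317 CPM, a log2 ratio of 0.99. The log2 ratios of the other ligands in ending B were also smaller among these cells than over all cells, at 0.41 for Bmp3, 0.44 for Bmp4, 0.72 for Bmp5 and 0.91 for Bmp7. In ending A they were 2.17 for Bmp3, 1.26 for Bmp4, 2.63 for Bmp5 and 2.37 for Bmp7. The background at 2-fold among these cells was 10% of 7448 genes higher and 6.93% lower in A3, and 2.39% of 6367 genes higher and 2.53% lower in B3. Grem1 was at 7.30, 8.39 and 1.74 CPM in ending A and at 5.77 and 9.53 CPM in B1 and B2. In B3 a Grem1 UMI was found in 0 of 929 cells, which allows a share of cells with a UMI of up to 0.323%. At a median of 3632 UMIs per cell this bounds detection and not expression.

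Inside a set, ligand levels were mostly higher in cells with 2 or more Pdgfra UMIs than in cells with none. Of 30 combinations of a ligand and a set, 27 were higher. The share of all genes that were higher in such cells was not computed, so this count is not read as particular to the ligands. Bmp5 was higher in 6 of 6 sets, with log2 ratios from 0.51 to 2.16, and in B1 it was at 77.9 CPM against 17.4 CPM. Bmp4 was also higher in 6 of 6 sets, from 0.01 to 0.80, with the interval above 0 in 5. In A2 its log2 ratio was 0.01 (-0.05 to 0.08). Bmp2 was higher in 5 sets, with 175 against 39.1 CPM in B2, and did not differ beyond counting error in A1, with 15.9 against 16.0 CPM. Bmp3 and Bmp7 were higher in 5 sets each, the exception being B3, where their log2 ratios were -0.13 (-0.23 to -0.02) and -0.20 (-0.43 to 0.03). Nog was higher in 3 sets and lower in 3, and every interval included 0. Grem1 differed from the ligands: it was at 7.30 against 27.2 CPM in A1, 8.39 against 25.5 CPM in A2 and 1.74 against 24.4 CPM in A3, with log2 ratios of -1.90, -1.60 and -3.81. The A3 value rests on 28 cells without a Pdgfra UMI, of which 1 held all 5 Grem1 UMIs. In B1 and B2 the Grem1 intervals included 0. Cells without a Pdgfra UMI had a lower median depth than those with 2 or more in A1, A2, A3 and B3 (10063 against 13432.5 UMIs in A1) and a higher one in B1 and B2 (4224.5 against 3978 in B1), and the part of depth in these ratios was not tested.

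Among Pdgfra-positive cells, Bmp2, Bmp4 and Bmp5 were higher in cells with 5 to 9 Pdgfra UMIs than in cells with 2 to 4 in both endings, while Bmp3 and Bmp7 were not in all sets. In A1 and A2 together, Bmp2 was at 10.5 CPM in the 1729 cells with 2 to 4 Pdgfra UMIs, 19.9 CPM in the 422 cells with 5 to 9 and 179 CPM in the 55 cells with 10 or more. Bmp5 went from 43.7 to 61.1 and 167 CPM and Bmp3 from 71.0 to 132 and 360 CPM over the same cells. In A3 Bmp2 went from 172 to 278 and 382 CPM, whereas Bmp3 stayed near 400 CPM, at 415, 399 and 404 CPM. In the 55 cells of A1 and A2, Bmp2, Bmp4, Bmp5 and Bmp7 were below the 382, 1089, 376 and 121 CPM of the A3 cells with as many Pdgfra UMIs, at 179, 654, 167 and 66.4 CPM. In B3 the cells with 5 to 9 Pdgfra UMIs were 91 and those with 2 to 4 were 836: Bmp2 was at 358 against 308 CPM and Bmp5 at 199 against 116 CPM, whereas Bmp3 was at 399.6 against 472 CPM and Bmp7 at 83.3 against 106 CPM. In B1 and B2, with 33 cells of 5 to 9 Pdgfra UMIs, Bmp2 was at 297 against 150.1 CPM and Bmp3 at 327 against 349 CPM. The median depth in A1 and A2 was 13988, 14960.5 and 9383 UMIs for 2 to 4, 5 to 9 and 10 or more Pdgfra UMIs, and its part in these levels was not tested.

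Levels over many cells do not show whether single cells express several ligands. For each of the 21 pairs of members, the cells with a UMI of both genes were counted and set against the number expected if detection were independent within each set and within each of 10 strata of depth. The expected number is the exact mean of all shuffles within strata, and no shuffle was drawn. Intervals are Poisson intervals of the observed count. They are wider than the spread of such shuffles, in which the number of cells with each gene stays fixed. Pooled over sets, all 10 pairs of ligands were at or above 1.01 times the expected number, 4 were at 1.1 or more and 5 had an interval above 1. For comparison, 7% of 11302 genes were found with Bmp2 at 1.1 or more, 2.68% with Bmp3, 0% with Bmp4, 2.62% with Bmp5 and 6.68% with Bmp7. The members are described by these counts, and nothing was tested.

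Bmp3 and Bmp7 were the ligand pair most often found together relative to the expected number. Both were seen in 951 cells, against 774 expected, a ratio of 1.23 (1.15 to 1.31), and the ratio was above 1 in 6 of 6 sets, from 1.12 in B3 to 1.41 in A2. A Bmp3 UMI was found in 68.0% of cells with Bmp7, and Bmp7 ranked 51st of the 11302 genes for Bmp3. The UMI counts moved likewise: Bmp3 was at 1.44 times its expected UMIs in cells with Bmp7 and at 0.74 times in cells without. Bmp2 and Bmp7 were found together in 725 cells, against 608 expected, a ratio of 1.19 (1.11 to 1.28). In A1 the pair was seen in 56 cells against 27.7 expected, and in A2 in 41 against 23.0, ratios of 2.02 and 1.78. The ratios in A3, B1, B2 and B3 were 1.14, 1.32, 1.32 and 1.06. Where more cells hold a gene the ratio has less room: Bmp2 was found in 66.1% of these cells in A3 and in 10.5% in A1, and the excess over the expected number was 49.1 cells in A3 and 28.3 in A1. Bmp2 and Bmp3 were at 1.12 (1061 cells, 945 expected), Bmp5 and Bmp7 just over 1.1 (864 and 785) and Bmp2 and Bmp5 at 1.09, each above 1 in 6 of 6 sets. Bmp3 and Bmp5 were at 1.05, above 1 in 4 sets and below 1 in A3 (0.96) and B3 (0.93).

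Pairs with Bmp4 were held near 1 by its detection in 93.7% of the cells, and they ran from 1.01 to 1.02 for the 4 ligands. Its UMI counts leave more room, and Bmp4 was at 1.12 times its expected UMIs in cells with Bmp2 and at 0.93 times in cells without. That ratio was above 1 in 6 of 6 sets, from 1.07 in B3 to 1.43 in A1 and A2. In the 297 cells without a Bmp4 UMI, Bmp2 was at 0.45, Bmp3 at 0.42, Bmp5 at 0.62 and Bmp7 at 0.58 of the expected UMIs, while Grem1 was at 2.61. Pooled over sets, cells without detected Bmp4 thus held less of every other ligand and more Grem1. Bmp5 in B2 was an exception, at 1.13 on 5 UMIs. Of the 70 Grem1 UMIs in these cells, A1 held 38 and A2 held 29. B1 held 1, B2 held 2, and A3 and B3 held 0.

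Nog was found with Bmp2, Bmp3 and Bmp7 less often than the expected numbers. Nog and Bmp3 were found together in 89 cells against 138 expected, a ratio of 0.64 (0.52 to 0.79), the lowest of the 21 pairs. The ratio was below 1 in 6 of 6 sets; in A3 the pair was seen in 26 cells against 54.5 expected, a ratio of 0.48 (0.31 to 0.70), and in B3 in 9 against 17.2, a ratio of 0.52. Without A3 the pooled ratio was 0.75 (0.58 to 0.96). For Bmp3, Nog ranked 11285th of 11302 genes, and 5.88% of genes were at 0.9 or less. The 279 cells with Nog held 175 Bmp3 UMIs against 512 expected, 0.34 of that number. Bmp2 and Nog were found together in 82 cells against 109 expected (0.75, 0.60 to 0.94), below 1 in 6 of 6 sets, and 7.91% of genes were at 0.9 or less for Bmp2. Bmp7 and Nog were at 0.75 (71 cells, 94.3 expected), below 1 in 4 of 6 sets, and 8.54% of genes were at 0.9 or less for Bmp7. With 2 or more UMIs required for detection, or with thinned cells, the Bmp7 and Nog pair was above 1.

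Bmp5 and Nog were found together in 190 cells against 166 expected, a ratio of 1.14 (0.99 to 1.32), which includes 1, and 0.93 in B3. A Bmp5 UMI was present in 68.1% of cells with Nog. In UMIs, cells with Nog held 626 Bmp5 UMIs against 412 expected, a ratio of 1.52. The ratio was 1.61 in A1, 1.41 in A2, 1.52 in A3 and 1.47 in B3, while B1 and B2 held only 3 and 2 such UMIs. In A3, where 112 cells had Nog, Bmp5 was at 547 CPM in them and 284 CPM in the other cells, and Bmp3 was at 56.3 against 441 CPM. The cells with Nog in A3 thus had more Bmp5 and less Bmp3 on average, and Bmp4 was at 1.13 of its expected UMIs in cells with Nog over all sets.

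Grem1 was found in 175 of the Pdgfra-positive cells. With Bmp3 it was seen in 60 cells against 82.8 expected (0.72, 0.55 to 0.93), with Bmp5 in 57 against 76.0 (0.75, 0.57 to 0.97) and with Bmp7 in 28 against 39.7 (0.70, 0.47 to 1.02). With Bmp2 it was seen in 35 cells against 29.5 expected, a ratio of 1.19 (0.83 to 1.65), so the direction for this pair is within counting error. With Bmp4 it was at 0.95 (0.80 to 1.11). Nog and Grem1 were found together in 10 cells, with 10.0 expected. Of the 10 pairs of a ligand and an antagonist, 6 were at 0.9 or less, 5 had an interval below 1 and 2 were at 1.1 or more. The background for sparse genes is wide: 15.8% of genes were at 0.9 or less for Nog and 18.9% for Grem1, and 22.7% and 22% were at 1.1 or more. For Bmp5 and Bmp4, 2.56% and 0.0796% of genes were at 0.9 or less.

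**Figure D2:**
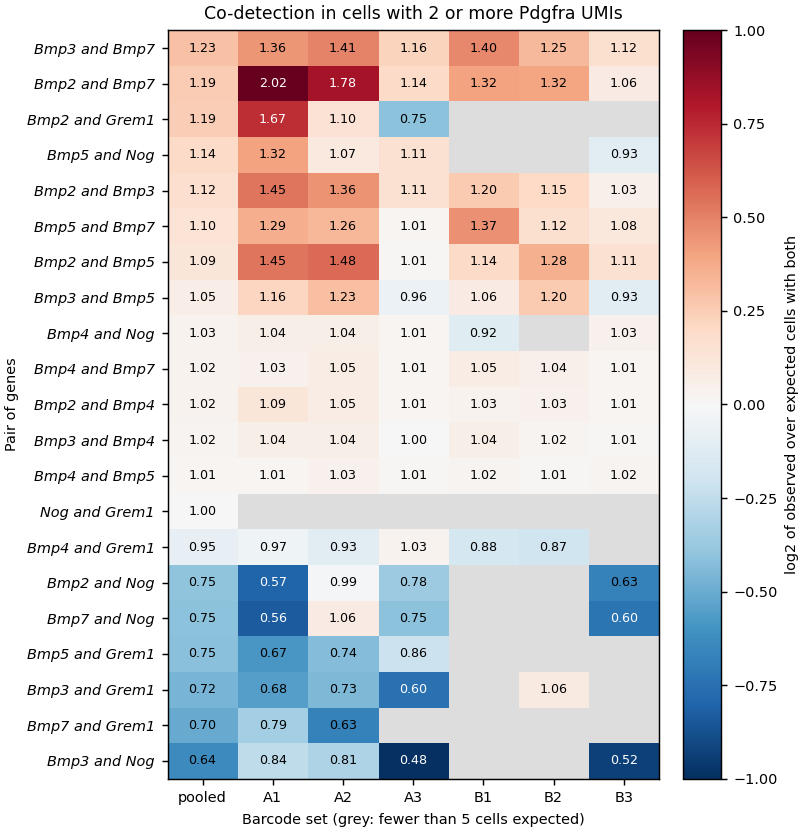
Observed over expected number of cells with both genes for the 21 pairs, pooled and in each barcode set, among cells with 2 or more Pdgfra UMIs. Printed values are ratios, colours their log2 values, and grey marks a set with fewer than 5 cells expected. Pairs of ligands without Bmp4 lie in the upper rows, among them also the antagonist pairs Bmp2 and Grem1 (1.19) and Bmp5 and Nog (1.14). Other pairs of Bmp3, Bmp7, Bmp2 or Bmp5 with an antagonist fill most of the lower rows.

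Counted over the 5 ligands at once, cells with all and cells with few ligands were both more frequent than expected. All 5 ligands were found in 334 cells, 7.06% of the 4731, where 209 cells (4.42%) were expected. None was found in 128 cells against 59.7 expected, and 1 in 861 cells against 718. With 2 or 3 ligands, 1305 and 1250 cells were seen against 1490 and 1458. The excess at 5 ligands was 36 cells against 5.00 in A1, 207 against 152 in A3 and 57 against 42.5 in B3. The cells were thus spread more widely over the number of ligands than independent detection gives.

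**Figure D3:**
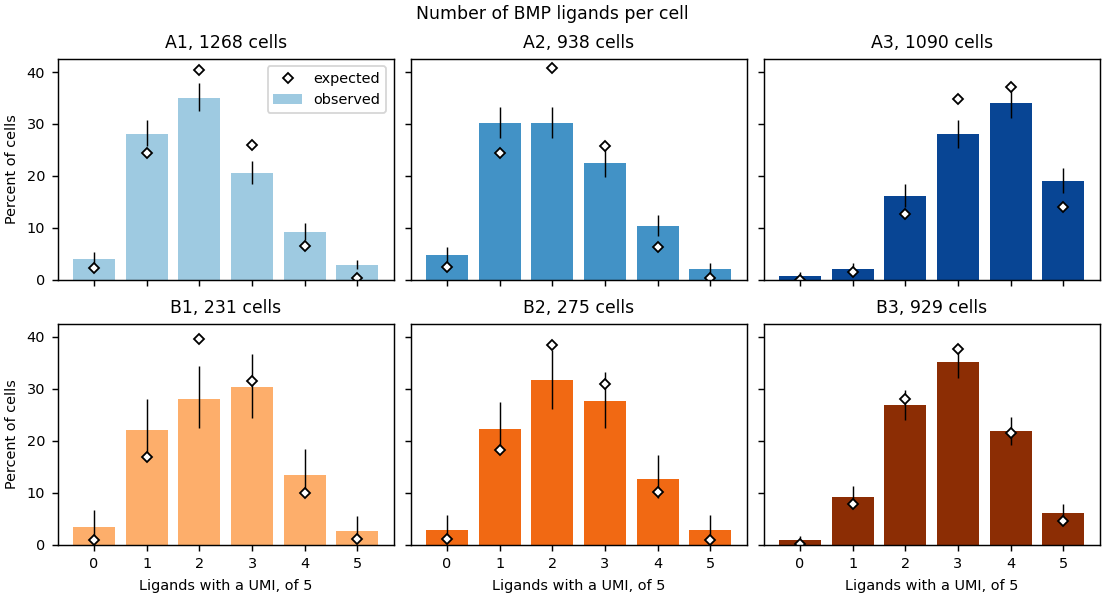
Percent of cells with 2 or more Pdgfra UMIs that had a UMI of 0 to 5 of the ligand genes, by barcode set. Bars are observed shares with exact Clopper-Pearson 95% intervals and diamonds the shares expected with independent detection within set and depth; the bars exceed the diamonds at 0, 1 and 5 ligands in A1, A2 and A3 and fall below them at 2 ligands in A1 and A2.

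The genes found most often with each ligand were partly shared: of the top 10 genes, Bmp3 and Bmp7 had 7 in common, Bmp2 and Bmp3 had 3, Bmp2 and Bmp7 had 2, Bmp5 and Nog had 3, and Bmp5 had none in common with Bmp2, Bmp3 or Bmp7. With Bmp2 they were Bdkrb2, a bradykinin receptor (1.20 of expected in ending A and 1.21 in B), Zdhhc14, a palmitoyltransferase (1.28 and 1.19), and Nkd2, an inhibitor of Wnt signalling (1.19 and 1.20). With Bmp3 they were the collagen-binding integrin Itga11 (1.40 and 1.25), the hyaluronan synthase Has2 (1.24 and 1.33) and the stress-response gene Gadd45a (1.24 and 1.30). Bmp7 shared Itga11 (1.52 and 1.32), beside Procr, the protein C receptor (1.43 and 1.35), and Opcml, a cell adhesion gene (1.38 and 1.36). With Bmp5 they were Mtcl1, a microtubule-binding protein (1.17 and 1.24), the Notch ligand Dll1 (1.15 and 1.19) and the activin subunit Inhba (1.13 and 1.19). With Bmp4 they were the apelin receptor Aplnr, the septin Sept4 and Cybrd1, a reductase, all at 1.03 to 1.04. Nog had Spsb1, a ubiquitin ligase adaptor (2.03 and 2.30), the prostaglandin transporter Slco2a1 (1.62 and 2.13) and the basement membrane collagen Col4a6 (1.59 and 1.95). The ending B values of these 3 rest on only 11, 21 and 16 cells with both genes, against 4.78, 9.86 and 8.19 expected. The rule took the 3 genes with the highest lower value of both endings among 4790 or 4791 genes found in 10% or more of the cells of each ending, and Grem1, found in under 5% of cells, was outside it.

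Pooled over sets, the BMP targets Id1 and Id3 were higher in cells with more of the ligands, while Smad6 and Smad7 differed little. Id1, a direct target, was at 0.57 (0.53 to 0.61) of its expected UMIs in the 989 cells with 0 or 1 ligand, 0.85 in the 1305 cells with 2, 1.09 in the 1250 cells with 3 and 1.26 (1.22 to 1.30) in the 1187 cells with 4 or 5. Id3, of the same family, was at 0.65, 0.90, 1.07 and 1.26. Cells with 4 or 5 ligands over cells with 0 or 1 gave a log2 ratio of 1.15 (1.04 to 1.25) for Id1 and 0.96 (0.90 to 1.02) for Id3. With the strata also divided by Pdgfra UMIs, these were 1.01 and 0.87. The rise ran over all steps in 4 sets: with 4 or 5 ligands against 0 or 1, Id1 was at 2.37 against 0.49 in A1, 2.13 against 0.60 in A2, 1.52 against 0.53 in B1 and 1.31 against 0.68 in B2. In A3 Id1 was low in the 31 cells with 0 or 1 ligand (0.25) and level from 2 ligands up, at 1.06, 1.00 and 1.04. In B3 neither Id1, at 1.08 and 1.07, nor Id3, at 0.90 and 1.02, showed such a step. The pooled Id2 values of 0.81, 1.08, 1.06 and 0.97 join opposite directions. Id2 went from 0.75 to 1.90 in A1, 0.72 to 1.60 in A2, 0.70 to 1.44 in B1 and 0.83 to 1.35 in B2, but from 1.22 to 0.76 in B3, and in A3 it was 0.55, 1.33, 1.06 and 0.89. The inhibitory SMAD genes Smad6 and Smad7, which are also targets, had pooled log2 ratios of 0.03 (-0.30 to 0.37) and -0.04 (-0.17 to 0.09). These also join sets that differed. Smad6 went from 0.88 to 1.70 in A2 and was at 0.80, 1.07, 1.25 and 0.85 over the steps in A3. Smad7 was at 0.88, 1.34, 1.12 and 0.85 in A3.

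The single members differed in the targets found with them. Cells with Bmp7 held 1.23 times the expected Id1 UMIs and 1.20 times the Id3 UMIs, above 1 in 6 of 6 sets for both. Cells with Bmp3 held 1.11 and 1.13 times, with Id1 at 0.96 in A3 and B3. The 297 cells without Bmp4 held 0.44 of the Id1 and 0.43 of the Id3 UMIs expected. Pooled over sets, cells with Nog were at 1.01 for Id1 and 1.04 for Id3, but the sets differed. Id1 and Id3 were at 0.87 and 0.86 in A1, 0.98 and 1.07 in A2, 1.00 and 1.14 in A3 and 1.35 and 1.00 in B3. In A1 the 73 cells with Nog held 126 Id1 UMIs against 144 expected and 348 Id3 UMIs against 404 expected. These ratios carry no interval here, so no link of Nog with lower targets is read from them. Cells with Nog held more Id2 (988 UMIs, 556 expected, a ratio of 1.78), with a ratio above 1 in 6 of 6 sets, from 1.23 in A2 to 2.13 in B2, where there were 9 UMIs. Smad7 was at 1.44 in cells with Nog, with 1.08 in A1, 1.37 in A2, 1.86 in A3 and 0.59 in B3. Smad6 was at 1.34, of which A3 held 63 of 83 UMIs, and it was below 1 in A1 (0.88) and A2 (0.81). Cells with Grem1 were at 0.84 for Id1 and 0.74 for Id3.

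**Figure D4:**
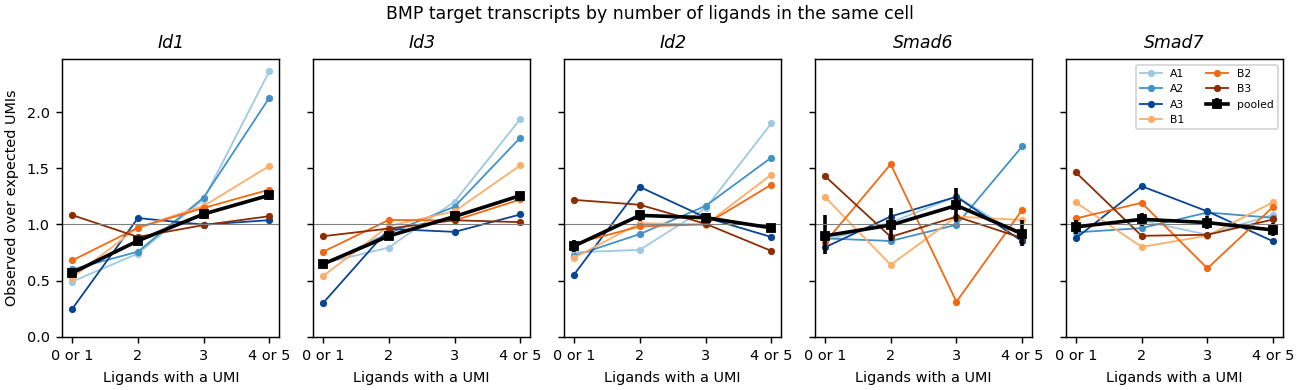
Observed over expected UMIs of 5 BMP target genes in cells with 0 or 1, 2, 3, and 4 or 5 ligand genes detected, among cells with 2 or more Pdgfra UMIs. Coloured lines are barcode sets and black squares the pooled values with 95% intervals; the pooled Id1 and Id3 values climb from 0.57 and 0.65 to 1.26, while the pooled Smad6 and Smad7 values stay near 1.

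Proliferation genes were read beside the members, since BMP signalling is known for restraining proliferation. Of the 4731 cells, 2392 had a UMI of Mki67 or Top2a, which encode proteins of dividing cells, and 2339 had none. Cells with such a UMI were deeper, with a median of 13530.5 against 5006 UMIs, which enters every comparison of these cells. Within sets, Bmp2 was lower in them in 6 of 6 sets: 9.81 against 40.3 CPM in A1, 10.6 against 48.1 in A2, 244 against 324 in A3, 67.6 against 185 in B1, 108 against 210 in B2 and 242 against 332 in B3. The log2 ratios were -2.04, -2.18, -0.41, -1.45, -0.96 and -0.45. Bmp4 was also lower in 6 of 6 sets, by less, with log2 ratios from -0.50 to -0.22. Bmp5 and Bmp7 were lower in 6 sets each, and Bmp3 in 5, with A3 higher (0.20, 0.10 to 0.29). The interval lay below 0 in 4 sets for Bmp5, 5 for Bmp7 and 4 for Bmp3. Nog was lower in 5 sets, with 11.7 against 27.3 CPM in A3, and the interval lay below 0 in 2. In B1, B2 and B3 the cells with a proliferation UMI held 3 or fewer Nog UMIs. Grem1 was lower in A1 and A2 and higher in A3, B1 and B2, on 5 or fewer UMIs on at least 1 side in the last 3.

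Matching depth made the Bmp2 differences smaller in 6 of 6 sets. Many differences of the other members shrank as well, while some stayed nearly as they were. With cells compared within set and depth stratum, the pooled log2 ratio of UMIs was -0.11 for Bmp2, -0.11 for Bmp3, -0.08 for Bmp4, -0.15 for Bmp5, -0.06 for Bmp7, -0.35 for Nog and 0.31 for Grem1. The matched ratio stayed below 0 in 5 of 6 sets for Bmp2, at -0.48 in A1 and -0.78 in A2, and was 0.05 in A3. It was below 0 in 6 of 6 sets for Bmp3, Bmp4 and Bmp5. Among those that shrank, Bmp3 in A1 was at -0.15 against -0.50 unmatched. In A3 Bmp5 was at -0.12 against -0.67 and Nog at -0.43 against -1.23. Bmp7 changed sign in A2 (0.12 against -0.08) and in A3 (0.07 against -0.19). Among those that stayed near, Bmp5 in A1 was at -0.29 against -0.28 unmatched. Bmp3 was at -0.70 against -0.85 in B1 and at -0.21 against -0.14 in B3. Bmp7 in A1 was at -0.36 against -0.42, and Nog in A2 at -0.93 against -1.09. As cells with a UMI, Bmp2 was found in 545 cells with a proliferation UMI against 579 expected, a ratio of 0.94 (0.86 to 1.02), and the other members were at 0.91 to 1.00. All 7 intervals included 1. They are Poisson intervals of the observed count and are wider than the spread of shuffles within strata. That spread was not computed, so the intervals cannot show that a difference is absent. In the unmatched comparison by ending, 47.5% of genes in A and 50.7% in B were below 1, and 7 members in A and 6 in B were.

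**Figure D5:**
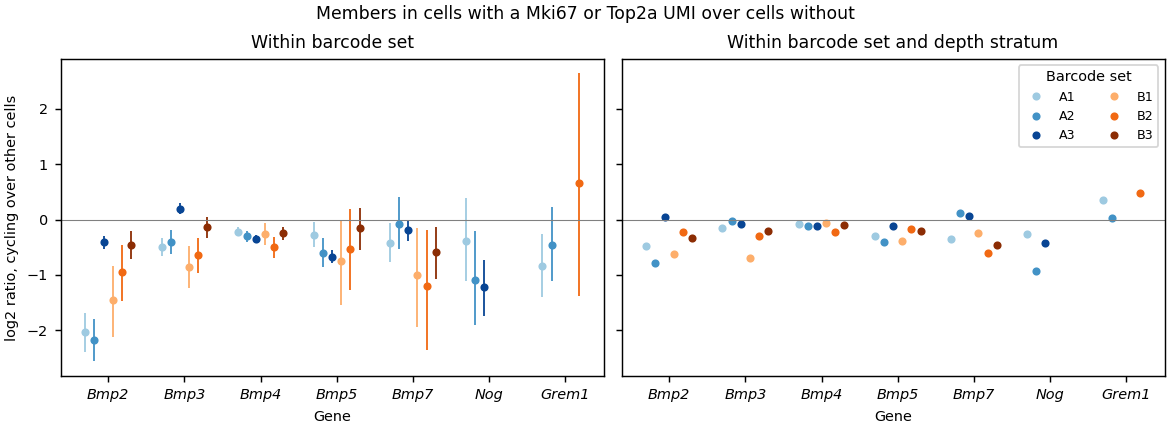
Log2 ratio of each member in cells with a Mki67 or Top2a UMI over cells without, by barcode set, within sets (left, with exact 95% intervals) and within sets and depth strata (right, without intervals), for sets with 5 or more UMIs on each side. Bmp2 lies near -2 in A1 and A2 on the left and between -0.8 and 0.1 in all sets on the right.

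Free RNA in droplets can put a UMI of a strongly expressed gene into a cell that does not make it. Cells with markers of other types, which might measure this, were few. The 26 cells with 3 or more epithelium markers and no Pdgfra UMI (median 7808.5 UMIs) had a Bmp4 UMI in 88.5%, a Bmp5 UMI in 42.3%, a Bmp3 UMI in 23.1%, a Bmp2 UMI in 19.2%, a Bmp7 UMI in 15.4% and a Nog and a Grem1 UMI in 3.85% each. Most of them, 92.3%, also had a Col1a1 UMI, so mesenchymal RNA was present in them. Col1a1 was at 1618 CPM in these cells, within the 650 to 2786 CPM of the whole sets. Whether this came from free RNA, from doublets or from mesenchymal cells with epithelial RNA was not tested. The shares are therefore not a measure of free RNA alone. The share of Bmp4-positive cells in the Pdgfra-positive cells, 93.7% at a median of 8235 UMIs, is thus close to that in these cells and is not read as a share of expressing cells. The share of Bmp3-positive cells in the Pdgfra-positive cells, 52.2%, lay above the interval of 8.97% to 43.6% for the epithelium-marker cells. It was also above that of 9 glia-marker cells, 11.1% (0.281% to 48.2%). It lay within those of 9 blood-marker cells, 44.4% (13.7% to 78.8%), and 4 endothelium-marker cells, 0% (0% to 60.2%). The shares of Bmp2 (36.0%), Bmp7 (29.6%) and Bmp5 (48.6%) lay within the epithelium-marker intervals of 6.55% to 39.4%, 4.36% to 34.9% and 23.4% to 63.1%. They were thus not separated from the shares in the few epithelium-marker cells. The same holds for Nog and Grem1, at 5.90% and 3.70% against an interval of 0.0973% to 19.6%, and the counts of cells with an antagonist UMI above are to be read beside these shares.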

How the data were processed

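The authors deposited 1 matrix of UMI counts per gene and cell, whole numbers as the file headers and values show. Cell Ranger 2.1.1, Seurat and mm10 are named in the submitters' processing notes, and the cells were captured for transcript 3′ ends, per the labels. No values were normalised beyond division by set totals (CPM). The members and gene lists were chosen with earlier results of these data known. All 7 members and listed pathway genes of 20 CPM and 2-fold in both endings are named, with the 3 top partners per member. Ratios carry exact conditional binomial, shares Clopper-Pearson and counts Poisson 95% intervals (scipy 1.17.1). No model was fitted, because 1 pooled matrix has no replicates. Of 24568 symbols, 17403 had counts in both endings, all 7 members among them. Thinning drew 2000 UMIs per cell without replacement. No doublet caller was used, and doublets may remain; leaving out the top 5% of UMIs per set stood in as an alternative. Scripts were tested on simulated data. Lipid tags were not used here, so ages and segments were not assigned.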

Additional observations from a re-analysis of the deposited data

How the results depend on the processing

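Barcode sets are technical and sparse antagonists limit precision: Nog rests on 360 and Grem1 on 278 UMIs among Pdgfra-positive cells. No paired analysis was possible because barcodes carry no well number. Alternatives were other cell filters, Pdgfra and detection minimums, depth strata, thinning, cycling genes and each set left out; thinned pairs, strata crossed with Pdgfra UMIs and the -3 or other sets alone were added after seeing the data. Of the recomputed counts, 69 stayed within 1.5 times. Ligand pairs at 1.1 or more were 4, and 2 with cells thinned to 2000 UMIs and 2 with A3 and B3 alone; leaving out each set in turn gave 3 to 6, with 6 without A3. Of single values, 675 moved by less than counting error, 72 by more and 3 reversed: Bmp5 and Grem1 in ending B alone (log2 of observed over expected 0.20), and Bmp7 and Nog with 2 or more UMIs for detection (0.26) and with thinned cells (0.17). Bmp2 and Grem1 (0.75 to 1.41), Bmp7 and Grem1 (0.42 to 1.19) and Bmp3 and Bmp5 (0.95 to 1.18) lay on both sides of 1 over the alternatives. Bmp3 and Nog ranged from 0.16 to 0.81 of expected and Bmp3 and Bmp7 from 1.15 to 1.54; with the top 5% of UMIs left out they were 0.60 and 1.23. The cause was not tested.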
